A study of Homo sapiens with 36 samples.

Results

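The 8 transcripts described here belong to 7 genes of the class known as TOP mRNAs, and were taken as a fixed list of Ensembl transcript IDs with their gene names. The list holds ENST00000309268.10 and ENST00000316292.13 of EEF1A1, ENST00000309311.6 of EEF2, ENST00000392222.6 of EEF1B2, ENST00000329251.4 of EEF1G, ENST00000318607.9 of PABPC1, ENST00000530705.5 of TPT1 and ENST00000296930.9 of NPM1. All 8 were found among the 223367 human transcripts of the table, and all 8 were among the 51052 transcripts that reached 1 TPM or more in at least 3 libraries. TPM is an abundance per transcript length, scaled so that every library sums to 1000000. The table pairs no ID with a gene, so the names are those of the list, and each value is that of 1 transcript and not of the whole gene.

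TOP mRNAs begin at the cap with a C followed by an uninterrupted run of pyrimidines, and most of them encode ribosomal proteins and translation factors. Their translation follows growth signals through mTORC1 and the cap-binding protein LARP1. When that signal is low, TOP mRNAs leave the polysomes and collect in light particles without ribosomes, so their place in a density gradient is a common readout of translational control. The elongation factors on the list act in sequence: EEF1A1 brings aminoacyl-tRNA to the ribosome, EEF1B2 and EEF1G are subunits of the complex that recharges it with GTP, and EEF2 moves the ribosome along the mRNA. PABPC1 binds the poly(A) tail, TPT1 encodes the translationally controlled tumour protein, and NPM1 is a nucleolar chaperone of ribosome assembly.

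Cells of HUES6, a long-established line of human embryonic stem cells, carried a knockout of RBPMS (KO) or did not (WT). RBPMS is an RNA-binding protein. All 36 libraries came from cells in FTDA medium, the labels give every sample the treatment "control", and cycloheximide at 100 ng/ml for 5 min held the ribosomes on the mRNA in both genotypes. The labels number 3 KO and 3 WT replicates, each taken here as a culture. Each has unfractionated Input and the 40S, 80S, disome, Polysome1 and Polysome2 fractions of a polysome gradient. The sources used here do not say how the knockout was made or whether the cultures of a genotype are separate clones, so p-values measure the spread between these samples. RBPMS itself and the markers of pluripotent cells were not analysed here, because IDs could be named only for the list. Libraries were made from equal amounts of poly(A) RNA, so a value is a share of a sample's mRNA, and fewer cells with a transcript cannot be told apart from less of it per cell.

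KO replicates 1 and 2 stood apart from the other 4 cultures in every fraction. The 40S library of WT replicate 3 was also sparse, with 8956 transcripts at 1 TPM or more, beside 14712 and 15949 in the other WT 40S libraries. In Input KO replicates 1 and 2 held 18666 and 21914 transcripts at 1 TPM or more, KO replicate 3 held 31380, and the WT replicates held 34899 to 38389. Across the 51052 tested transcripts, the correlation of log2(TPM + 1) with the WT mean of the same fraction was 0.462 to 0.678 for KO replicate 1, 0.590 to 0.779 for KO replicate 2 and 0.890 to 0.916 for KO replicate 3. The ERCC spike-in controls summed to 43.3 to 3589 TPM in KO and to 2.55 to 876 TPM in WT libraries. The labels describe the Input of KO replicate 3 as Input2. KO values of the members are therefore given per culture, and the part of these library differences in the results was not tested.

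The sequence around the annotated start was read for the C plus pyrimidine run that names the class. An annotated start is not a measured cap site of these cells, so a window without a run does not show that the mRNA lacks one. Each line below holds 30 bases on the coding strand, 10 before the annotated start and 20 from it, from RefSeq on build GRCh38.p14, and is shown because the start is where the class is defined. Capitals mark the longest run of a C followed by at least 4 C or T, the first of them where runs tie, as in TPT1, whose last 8 bases are a run of the same length. Of the 7 genes, 6 had an entry, all but PABPC1, and EEF1B2 and NPM1 had an entry for each of 2 starts.
EEF1A1, chr6:73521013-73521042, minus strand: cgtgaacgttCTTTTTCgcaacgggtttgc
EEF2, chr19:3985444-3985473, minus strand: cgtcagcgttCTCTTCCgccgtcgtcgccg
EEF1B2, window 1, chr2:206159599-206159628, plus strand: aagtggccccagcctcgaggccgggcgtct
EEF1B2, window 2, chr2:206159885-206159914, plus strand: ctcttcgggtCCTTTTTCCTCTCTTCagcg
EEF1G, chr11:62573872-62573901, minus strand: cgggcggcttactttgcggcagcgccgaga
TPT1, chr13:45341164-45341193, minus strand: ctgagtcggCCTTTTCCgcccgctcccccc
NPM1, window 1, chr5:171387839-171387868, plus strand: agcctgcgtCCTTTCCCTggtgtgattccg
NPM1, window 2, chr5:171387106-171387135, plus strand: agCTCTCTTagggcgatgtccttgctaatt
The runs of EEF1A1 and EEF2 begin exactly at the annotated start and are 7 bases long. The second EEF1B2 window has the longest run of the set, 16 bases, also from the start itself, while its first window has none. The TPT1 run of 8 bases and the first NPM1 run of 9 bases begin 1 base before the start. The second NPM1 run lies 8 bases upstream of it, and the EEF1G window holds no such run. A run began within 3 bases of the start in 5 of these 8 windows and in 11.2% of the 35116 windows of all genes, a distance chosen after seeing the data. Anywhere in the 30 bases, 38.4% of all windows held a run. The windows belong to genes, and which of them starts the listed transcript ID was not tested.

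EEF1A1 ENST00000309268.10 was the most abundant of the 8 in WT Input and the one with the widest spread in KO. In each sentence of values that follows, 3 values of a genotype stand for replicates 1, 2 and 3. In Input EEF1A1 had 0, 39.4 and 2514 TPM in KO, against 3966, 3500 and 2468 TPM in WT, where it ranked 23, 30 and 35 among all transcripts of its library. In 40S EEF1A1 had 0, 0 and 166 TPM in KO, against 576, 710 and 2.87 TPM in WT. KO replicate 3 lay between the lowest and the highest WT library in both. The other KO libraries were listed at 0, apart from the 39.4 TPM of KO replicate 2 in Input. In 80S EEF1A1 had 0, 0 and 1136 TPM in KO, against 2521, 2002 and 353 TPM in WT. In the disome fraction EEF1A1 had 3.37, 0 and 846 TPM in KO, against 965, 599 and 94.1 TPM in WT. WT replicate 3 was the lowest WT library in each of these fractions, below KO replicate 3. In Polysome1 EEF1A1 had 0, 0.181 and 793 TPM in KO, against 506, 424 and 330 TPM in WT. In Polysome2 EEF1A1 had 0.153, 0 and 983 TPM in KO, against 399, 378 and 467 TPM in WT. KO replicate 3 was above all 3 WT libraries in both polysome fractions, so the genotypes overlapped in every fraction. EEF1A1 was listed at 0 in 8 libraries, all of them from KO replicates 1 and 2, and no mean is given for KO. The gene has many near-identical pseudogene copies, among which an estimate can be split. Whether a listed 0 is a failed or split estimate was not tested.

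The other EEF1A1 ID, ENST00000316292.13, was close to the limit of what the table records. In Input it had 0.299, 0.733 and 1.56 TPM in KO, against 2.88, 2.50 and 3.30 TPM in WT, and all 3 KO libraries lay below all 3 WT libraries. Outside Input it ranged from 0.113 to 1.88 TPM in KO and from 0.0276 to 1.97 TPM in WT, and the genotypes overlapped in all 5 fractions. Its highest value in each WT culture was in Input, as for the abundant ID.

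EEF2, the translocase, followed the abundant EEF1A1 transcript in KO but was never listed at 0. In Input EEF2 had 34.1, 78.5 and 780 TPM in KO, against 1195, 1206 and 656 TPM in WT. In 40S EEF2 had 8.10, 8.54 and 28.8 TPM in KO, against 192, 171 and 3.56 TPM in WT. In 80S EEF2 had 25.9, 51.7 and 1027 TPM in KO, against 1974, 2899 and 237 TPM in WT. KO replicates 1 and 2 lay below every WT library in Input and 80S, and WT replicate 3 was the lowest of all 6 in 40S. In the disome fraction EEF2 had 19.98, 76.2 and 1018 TPM in KO, against 747, 822 and 160 TPM in WT. In Polysome1 EEF2 had 68.2, 108 and 994 TPM in KO, against 611, 641 and 319 TPM in WT. In Polysome2 EEF2 had 68.0, 128 and 1024 TPM in KO, against 871, 910 and 418 TPM in WT. KO replicate 3 was the highest of all 6 cultures in the disome and both polysome fractions, and the other KO cultures were the lowest.

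EEF1B2, a subunit of the exchange factor, was lower in all KO libraries than in all WT libraries in every fraction other than 40S. Its values were identical in all 36 libraries to those of 1 other ID, so it stands for a shared estimate. In Input EEF1B2 had 0.0894, 1.61 and 14.03 TPM in KO, against 18.7, 19.0 and 24.3 TPM in WT. In 40S EEF1B2 had 0, 0 and 4.64 TPM in KO, against 4.42, 5.49 and 0 TPM in WT. The 40S libraries overlapped, with WT replicate 3 listed at 0 there. In 80S EEF1B2 had 0, 0 and 5.32 TPM in KO, against 13.3, 12.97 and 18.5 TPM in WT. In the disome fraction EEF1B2 had 0.352, 0.197 and 7.65 TPM in KO, against 21.6, 23.7 and 11.8 TPM in WT. KO replicate 3 was nearest to WT in each case. In Polysome1 EEF1B2 had 0, 3.12e-08 and 9.49 TPM in KO, against 14.5, 14.3 and 30.2 TPM in WT. In Polysome2 EEF1B2 had 0.408, 0 and 9.10 TPM in KO, against 13.6, 13.2 and 19.6 TPM in WT. EEF1B2 was listed at 0 in 7 libraries.

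EEF1G, the other exchange factor subunit, had the highest TPM of the 8 transcripts in KO replicates 1 and 2 in every fraction. In Input EEF1G had 443, 627 and 1517 TPM in KO, against 1857, 1866 and 1344 TPM in WT. In 40S EEF1G had 147, 366 and 717 TPM in KO, against 2285, 1587 and 685 TPM in WT. In 80S EEF1G had 617, 823 and 2416 TPM in KO, against 3689, 4336 and 1577 TPM in WT. In these 3 samples KO replicate 3 lay above WT replicate 3 and below the other WT cultures. In the disome fraction EEF1G had 145, 810 and 2639 TPM in KO, against 1191, 1568 and 1123 TPM in WT. In Polysome1 EEF1G had 940, 1034 and 2241 TPM in KO, against 961, 1176 and 884 TPM in WT. In Polysome2 EEF1G had 866, 947 and 1811 TPM in KO, against 1261, 1425 and 1327 TPM in WT. KO replicate 3 was above all WT libraries in these 3 fractions, and KO replicates 1 and 2 lay inside the WT range in Polysome1 and below it in the others.

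PABPC1, the poly(A)-binding protein, was highest in Input in every WT culture. In Input PABPC1 had 0.365, 2.30 and 39.4 TPM in KO, against 55.4, 32.7 and 59.8 TPM in WT. In 40S PABPC1 had 0, 0 and 1.32 TPM in KO, against 1.74, 8.23 and 3.08 TPM in WT, with no overlap between the genotypes. KO replicate 3 lay inside the WT range in Input. From 80S to Polysome2, PABPC1 ranged from 0.402 to 14.7 TPM in KO and from 0.413 to 25.1 TPM in WT, and the genotypes overlapped in all 4 fractions. Its highest KO value outside Input, 14.7 TPM, was in Polysome2 of KO replicate 3, against 3.84, 3.59 and 5.24 TPM in WT.

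TPT1 was likewise highest in Input in every WT culture. In Input TPT1 had 4.73, 7.85 and 22.99 TPM in KO, against 32.1, 24.1 and 30.4 TPM in WT, and the highest KO library was just below the lowest WT library. In 40S TPT1 had 5.74, 5.72 and 6.09 TPM in KO, against 12.2, 12.3 and 3.99 TPM in WT. From 80S to Polysome2, TPT1 ranged from 1.39 to 8.96 TPM in KO and from 2.58 to 17.8 TPM in WT. The genotypes overlapped in each of these 5 fractions.

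NPM1, the nucleolar chaperone, was the exception among the 8 transcripts, with KO replicates 1 and 2 above every WT library in 3 of the 6 fractions. Of the others, EEF1A1 ENST00000316292.13 had both above every WT library in 40S alone, at 1.29 and 0.402 TPM, against 0.379 TPM or less in WT. In Input NPM1 had 17.6, 16.8 and 11.5 TPM in KO, against 19.1, 13.9 and 19.3 TPM in WT. In 40S NPM1 had 13.1, 19.5 and 4.29 TPM in KO, against 2.09, 3.46 and 2.08 TPM in WT. In 80S NPM1 had 16.9, 22.3 and 14.4 TPM in KO, against 9.03, 6.65 and 5.52 TPM in WT. All 3 KO libraries lay above all 3 WT libraries in 40S and 80S, while the Input libraries overlapped. In the disome fraction NPM1 had 2.16, 21.5 and 11.4 TPM in KO, against 15.9, 10.7 and 5.67 TPM in WT. In Polysome1 NPM1 had 21.2, 18.4 and 12.9 TPM in KO, against 12.2, 9.17 and 5.53 TPM in WT, again with no overlap. In Polysome2 NPM1 had 13.9, 11.1 and 16.3 TPM in KO, against 17.4, 19.4 and 10.6 TPM in WT. The lowest disome value belongs to the KO library in which the 10 most abundant transcripts held 70.5% of all TPM.

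**Figure D1:**
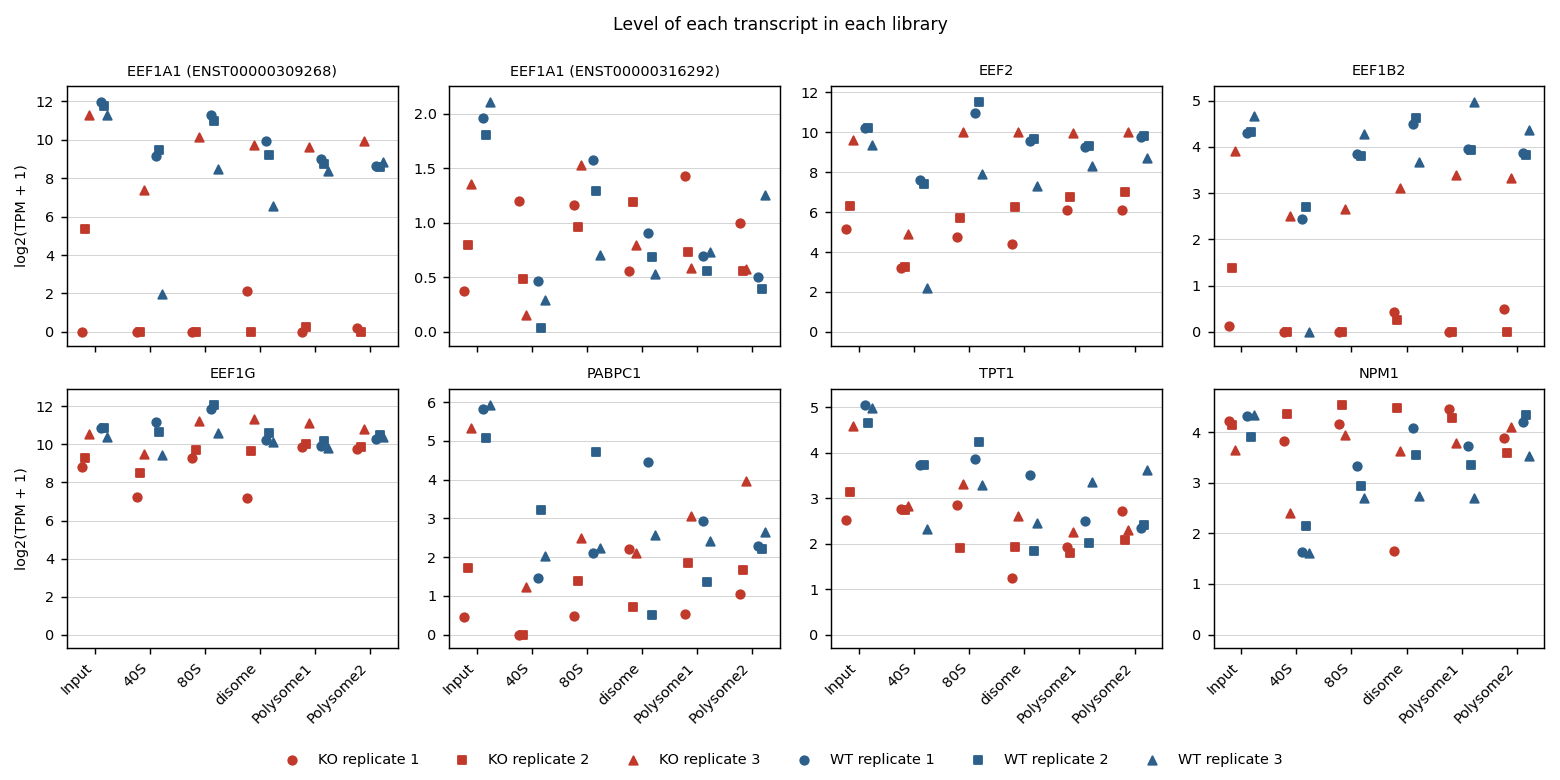
Level of each of the 8 transcripts as log2(TPM + 1) on the vertical axis, 1 panel per transcript with its own vertical scale, by fraction on the horizontal axis, with a point for each of the 3 KO and 3 WT libraries. EEF1A1 ENST00000309268.10, EEF2 and EEF1B2 show KO replicates 1 and 2 far below KO replicate 3, and NPM1 shows all 3 KO points above the WT points in 40S, 80S and Polysome1.

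The 8 transcripts together made up 0.04998, 0.0774 and 0.490% of all TPM in KO Input, against 0.715, 0.666 and 0.460% in WT Input. In 80S they made up 0.0668, 0.0903 and 0.462% in KO, against 0.823, 0.930 and 0.220% in WT. In Polysome2 they made up 0.0956, 0.109 and 0.386% in KO, against 0.257, 0.275 and 0.226% in WT. KO replicate 3 was inside the WT range in Input and 80S and above it in Polysome2, while the other KO cultures were below every WT culture in all 3. Most of each sum came from EEF1A1, EEF2 and EEF1G.

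**Figure D2:**
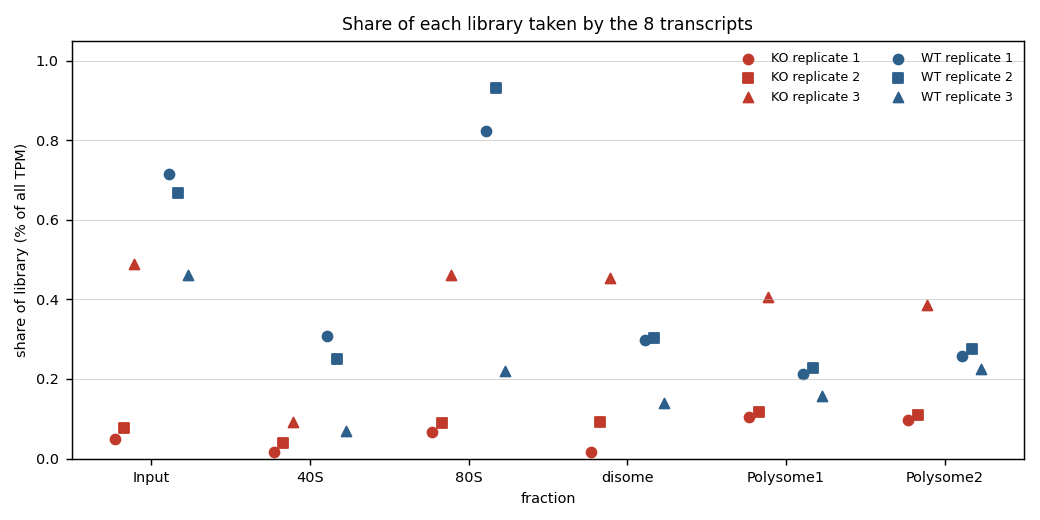
Summed TPM of the 8 transcripts as a percentage of all TPM, on the vertical axis, by fraction on the horizontal axis, with 1 point for each KO and WT library. KO replicates 1 and 2 stay at or below 0.117% in every fraction, KO replicate 3 reaches 0.490% in Input, and WT reaches 0.930% in 80S.

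In WT, 6 of the 8 transcripts were lower in the 40S fraction than in Input, against a background of 42.5% of all tested transcripts that were lower in that comparison, as tested with limma on log2(TPM + 1) over all 36 libraries with Benjamini-Hochberg adjustment and a threshold of 0.05. The median log2 difference of the members was -2.55, beside -0.95 over all tested transcripts. NPM1 fell by 2.39 (SE 0.56, limma adjusted p = 0.001142), with 2.54 ± 0.80 TPM in 40S and 17.4 ± 3.0 TPM in Input (SD, n = 3 each). PABPC1 fell by 3.38 (SE 1.01, limma adjusted p = 0.007883), with 1.74 to 8.23 TPM in 40S and 32.7 to 59.8 TPM in Input. The low EEF1A1 ID ENST00000316292.13 fell by 1.69 (SE 0.32, limma adjusted p = 0.0001446). EEF2 fell by 4.20 (SE 1.5, limma adjusted p = 0.02455), EEF1B2 fell by 2.71 (limma adjusted p = 0.03192) and TPT1 fell by 1.63 (limma adjusted p = 0.01900). By culture EEF2 stood at -2.63, -2.81 and -7.17, EEF1B2 at -1.86, -1.62 and -4.66 and TPT1 at -1.32, -0.91 and -2.65. With WT replicate 3, whose 40S library was sparse, dropped, EEF2 stood at -2.72 (limma adjusted p = 0.2733) and EEF1B2 at -1.74 (limma adjusted p = 0.3764). These were not the only members to lose their call without that culture, since 2 calls were left. The abundant EEF1A1 transcript had a log2 difference of -4.80 (SE 3.04) that missed the threshold (limma adjusted p = 0.2117), and passed it with culture as a fixed block (limma adjusted p = 0.0008092) or a random block (limma adjusted p = 0.02311). EEF1G differed by -0.30 (SE 0.73, limma adjusted p = 0.7826). These calls are relative to the library total: after median-of-ratios scaling, which moved the median of all transcripts to -0.16, 1 member was called, EEF1G at +2.35, TPT1 stood at +0.85, and after quantile normalization no member was called and TPT1 stood at +0.20. Dropping WT replicate 1 left 2 calls, dropping WT replicate 2 left 4, and dropping WT replicate 3 left 2. The share of all tested transcripts called under each omission is not given, so these counts alone are no result about the members.

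Polysome2, the heavier of the polysome fractions, was set against Input, 40S, 80S and Polysome1 in WT. Against Input, 3 members were lower, with 8.81% of all tested transcripts lower. PABPC1 fell by 3.23 (SE 1.01, limma adjusted p = 0.03219), TPT1 fell by 2.11 (SE 0.56, limma adjusted p = 0.01096) and EEF1A1 ENST00000316292.13 fell by 1.24 (SE 0.32, limma adjusted p = 0.009754). The abundant EEF1A1 transcript differed by -2.97 (SE 3.04, limma adjusted p = 0.629), with -3.31, -3.21 and -2.40 by WT culture. Its SE is pooled over all 12 groups, KO libraries included. The members' median was -0.87, beside -0.15 over all tested transcripts. After scaling to the ERCC total all 8 members were above 0, with a median of 2.50 beside 2.57 over all tested transcripts. Under that scaling 3 members, EEF1B2, EEF1G and NPM1, were called higher and 0 lower, with 63.1% of tested transcripts higher. Dropping WT replicate 1 or WT replicate 2 left 0 calls, and dropping KO replicate 2 or WT replicate 3 left 2. Against 40S, NPM1 alone was called higher, with 34.5% of all tested transcripts higher. NPM1 rose by 2.23 (SE 0.56, limma adjusted p = 0.003309), with 15.8 ± 4.6 TPM in Polysome2 and 2.54 ± 0.80 TPM in 40S (SD, n = 3 each), but stood at -0.027 after median-of-ratios scaling and +0.19 after quantile normalization. Under these scalings the calls were lower instead: TPT1 at -2.51 after quantile normalization (limma adjusted p = 0.0004158), and TPT1 at -2.85 (limma adjusted p = 5.476e-05) and EEF1G at -2.68 (limma adjusted p = 0.0001623) after median-of-ratios scaling. With culture as a fixed block, under which 44.5% of tested transcripts were higher, EEF2 at +3.70 (limma adjusted p = 9.285e-05) and EEF1B2 at +2.31 (limma adjusted p = 0.0003503) were called as well. Dropping WT replicate 1 left no call, dropping KO replicate 1 gave 2 and dropping KO replicate 3 gave 3. Shares of all tested transcripts under these omissions, here and against Input, are not given, so those counts alone are no result about the members. Against 80S limma called no member, with 13.1% of tested transcripts called in either direction, and 0 of 8 members had an unadjusted p under 0.05, as did 30.6% of tested transcripts. With culture as a fixed block EEF1G passed at -1.13 (limma adjusted p = 0.04618), but not with culture as a random block (limma adjusted p = 0.08377). Against Polysome1 limma called no member, with 0.468% of tested transcripts called, and 0 members had an unadjusted p under 0.05, as did 13.1% of tested transcripts.

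**Figure D3:**
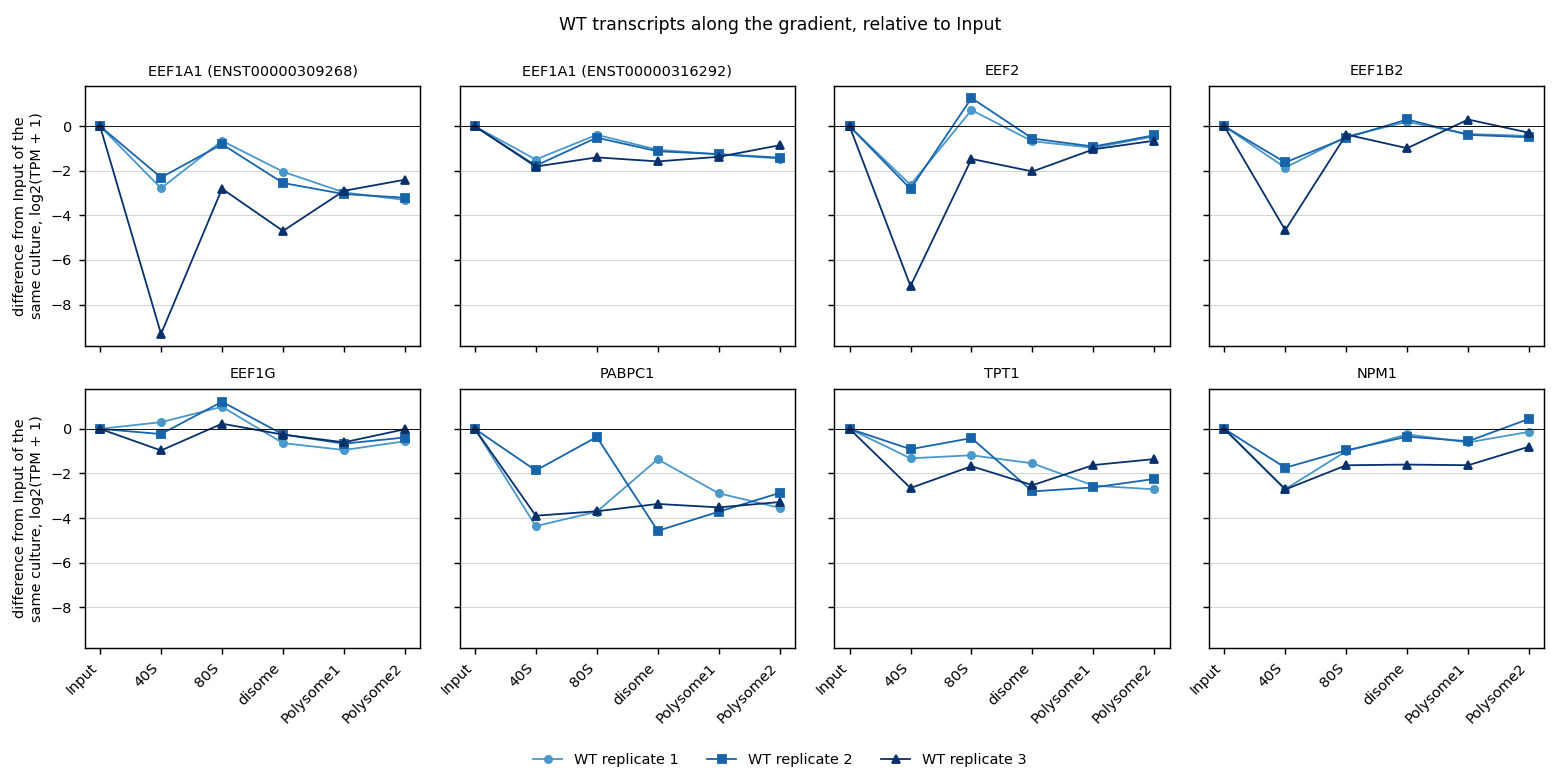
Difference of log2(TPM + 1) from the Input of the same culture, on the vertical axis, by fraction on the horizontal axis, 1 panel per transcript and 1 line for each of the 3 WT cultures. The 40S points lie below Input in all 3 cultures for every transcript other than EEF1G, and EEF1G lies above Input in 80S in all 3. In 40S, WT replicate 3 lies lowest for every transcript other than PABPC1, by the widest gaps for EEF1A1 ENST00000309268.10, EEF2 and EEF1B2.

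The members did not share 1 peak along the WT gradient. Within each WT culture, both EEF1A1 IDs, PABPC1 and TPT1 were highest in Input. EEF1G was highest in 80S in all 3 cultures, and EEF2 was highest in 80S in 2 of them and in Input in replicate 3. EEF1B2 peaked in the disome fraction in 2 cultures and in Polysome1 in replicate 3. NPM1 was highest in Input in replicates 1 and 3 and in Polysome2 in replicate 2. In 80S EEF1G averaged 3201 ± 1443 TPM in WT, against 1689 ± 299 TPM in WT Input (SD, n = 3 each).

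Between genotypes, 2 of the 8 transcripts were called in Input, both lower in KO, with 18.0% of all tested transcripts lower. PABPC1 fell by 3.10 (SE 1.01, limma adjusted p = 0.02910) and EEF1A1 ENST00000316292.13 fell by 1.11 (SE 0.32, limma adjusted p = 0.01484). The abundant EEF1A1 transcript had the widest difference, -6.12 (SE 3.04, limma adjusted p = 0.1518). That value depends on the pseudocount because 1 KO Input library, of replicate 1, is listed at 0. EEF2 differed by -2.92 (SE 1.5, limma adjusted p = 0.1672), EEF1B2 by -2.62 (SE 1.02, limma adjusted p = 0.06754) and EEF1G by -1.15 (SE 0.73, limma adjusted p = 0.2616). TPT1 differed by -1.47 (SE 0.56, limma adjusted p = 0.06015) and NPM1 by -0.19 (SE 0.56, limma adjusted p = 0.8461). The members' median was -2.05, beside -0.51 over all tested transcripts. All 8 values were below 0, but NPM1 stood at +0.40 after quantile normalization and at +0.42 after median-of-ratios scaling, and each of these scalings left 0 members called. EEF1A1 ENST00000316292.13, EEF1B2 and TPT1 had no overlap between genotypes, with 29.0% of tested transcripts lower without overlap. With culture as a random block, 4 members and 20.7% of tested transcripts were called lower: the abundant EEF1A1 transcript (limma adjusted p = 0.03971), EEF1A1 ENST00000316292.13 (limma adjusted p = 0.02733), EEF1B2 (limma adjusted p = 0.01661) and PABPC1 (limma adjusted p = 0.02621).

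The Input result depended on which KO cultures were kept. Without KO replicate 3, 7 of 8 members were called lower, as were 19382 of the 51052 tested transcripts. EEF1A1 then stood at -9.00 (limma adjusted p = 7.415e-05), EEF2 at -4.22 (limma adjusted p = 0.005863), PABPC1 at -4.52 (limma adjusted p = 0.0002117) and NPM1 at 0.00 (limma adjusted p = 1.0). With KO replicate 3 alone no member was called in any fraction, and 573 tested transcripts were lower in Input. On that comparison, whose spread is taken from the other groups, EEF1A1 stood at -0.37, its low ID ENST00000316292.13 at -0.60, EEF2 at -0.33, EEF1B2 at -0.52, EEF1G at -0.14, PABPC1 at -0.27, TPT1 at -0.31 and NPM1 at -0.55 in Input. The Input count was 0 when KO replicate 1, KO replicate 2, WT replicate 1 or WT replicate 3 was dropped in turn, and 1 when WT replicate 2 was. Shares of all tested transcripts under these omissions are not given, so the counts alone are no result about the members.

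**Figure D4:**
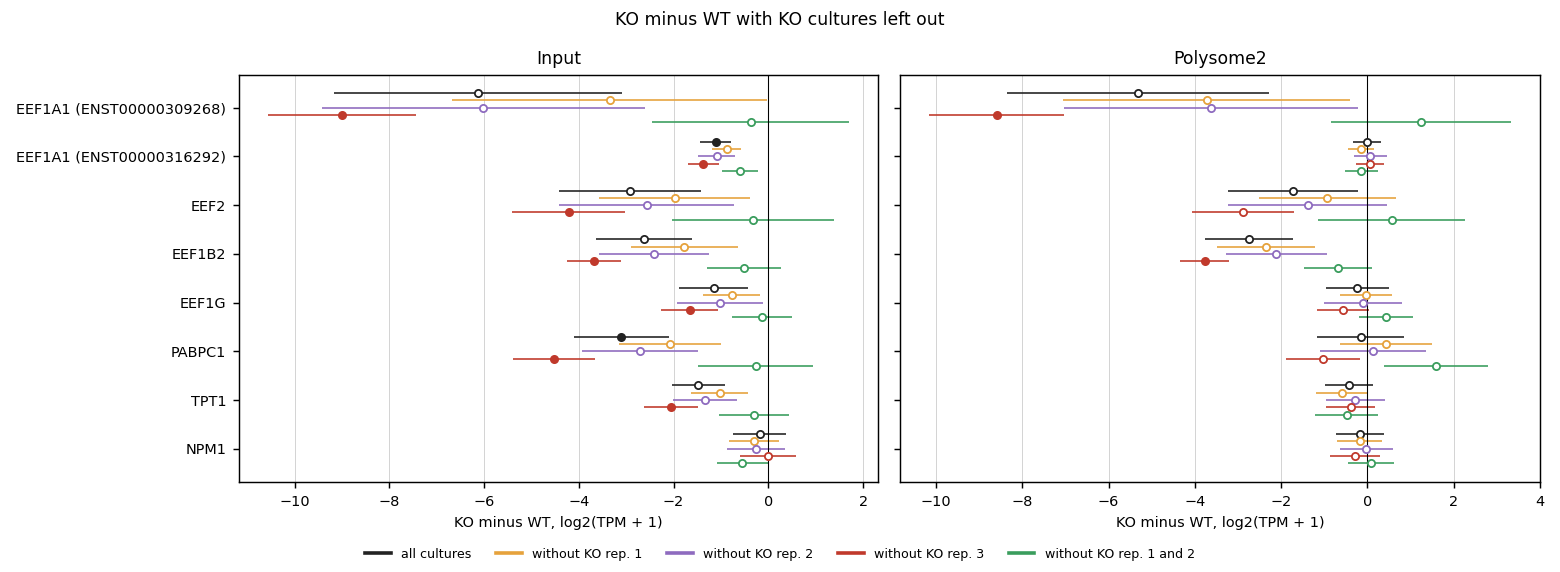
KO minus WT difference of log2(TPM + 1) for the 8 transcripts in Input and Polysome2, with all cultures and with KO cultures left out in colours, bars for the SE of the limma fit and filled points for an adjusted p under 0.05. In Input, EEF1A1 ENST00000309268.10 lies at -9.00 without KO replicate 3 and at -0.37 with KO replicate 3 alone.

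In the gradient fractions limma called no member between KO and WT, while 2 members in 40S, 4 in 80S and 1 in each heavier fraction had an unadjusted p under 0.05. From 40S to Polysome2, 5.65%, 16.8%, 21.6%, 28.0% and 26.2% of all tested transcripts had one. The share of all tested transcripts called after adjustment, in either direction, was 0.0235% in 40S, 0.599% in 80S, 2.78% in the disome fraction, 5.42% in Polysome1 and 5.52% in Polysome2. The members' medians were -1.35, -1.50, -0.88, -0.52 and -0.32 in that order, beside 0.00, -0.17, -0.45, -0.32 and -0.22 over all tested transcripts. EEF1B2 differed by -0.88 in 40S, and by -3.09 in 80S (limma adjusted p = 0.1338), -3.00 in the disome fraction (limma adjusted p = 0.09047), -3.15 in Polysome1 (limma adjusted p = 0.06036) and -2.74 in Polysome2 (limma adjusted p = 0.09508). With culture as a random block it passed in the last 4, with limma adjusted p = 0.04375, 0.02681, 0.01714 and 0.02637, and 1.16%, 6.07%, 8.29% and 8.25% of tested transcripts were then lower. Its libraries did not overlap in these 4 fractions, where 12.8%, 13.0%, 19.6% and 13.8% of tested transcripts were lower without overlap. PABPC1 was the member lower without overlap in 40S, as were 2.70% of tested transcripts. NPM1 was higher without overlap in 40S, 80S and Polysome1, as were 8.99%, 7.09% and 9.17% of tested transcripts. Its differences there were +1.72 (limma adjusted p = 0.4278), +1.23 (limma adjusted p = 0.2669) and +0.93 (limma adjusted p = 0.2729). They turned to -0.36, -1.45 and -3.13 after scaling to the ERCC total, beside medians of -0.08, -1.43 and -3.01 over all tested transcripts. Dropping KO replicate 3 gave 3 calls in 40S, 4 in 80S, 4 in the disome fraction, 2 in Polysome1 and 2 in Polysome2, when 2.43%, 22.9%, 30.1%, 36.5% and 34.3% of tested transcripts were called, so the counts in the polysome fractions were below the background.

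**Figure D5:**
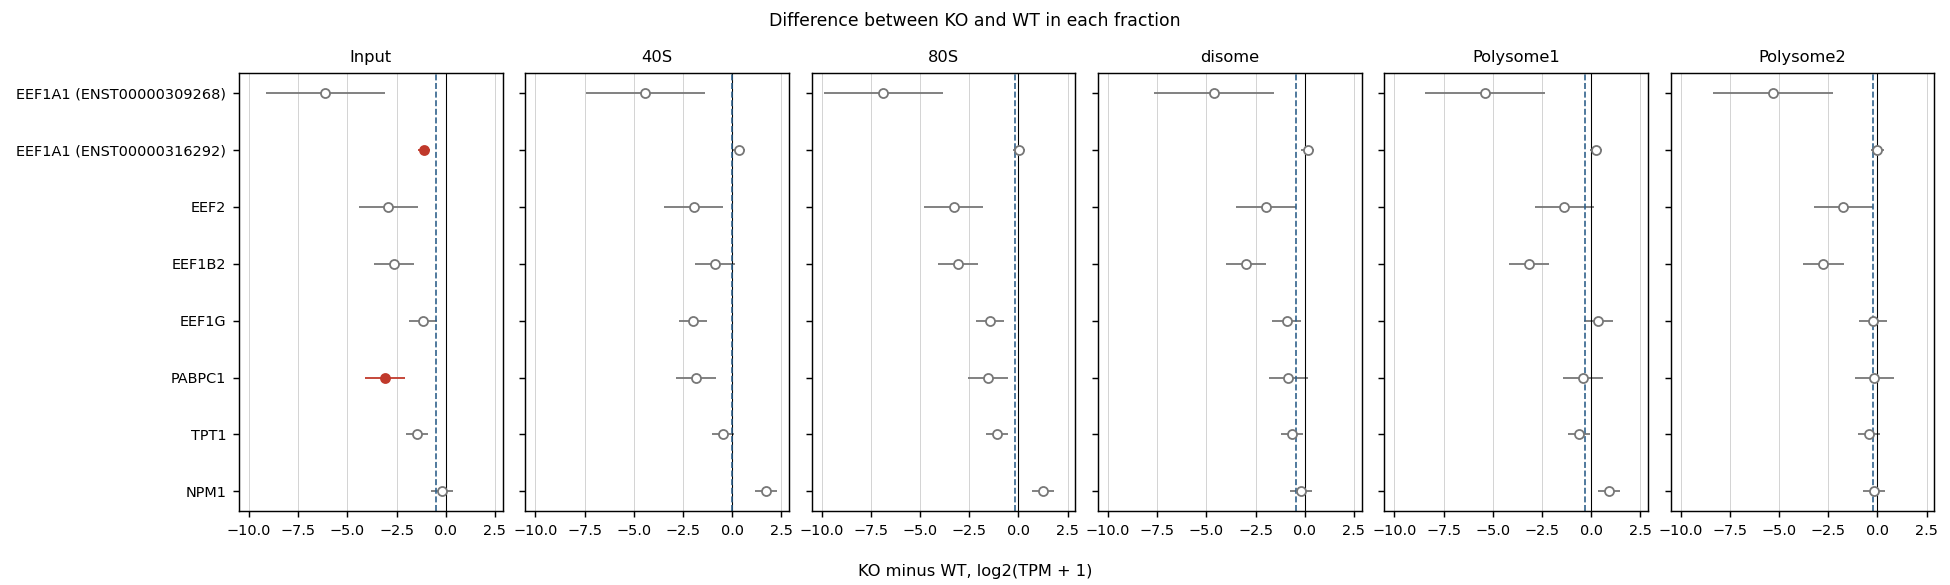
KO minus WT difference of log2(TPM + 1) for the 8 transcripts, on the horizontal axis, in each fraction, with SE bars from the limma fit, filled points for an adjusted p under 0.05 and a dashed line for the median of all tested transcripts. PABPC1 and EEF1A1 ENST00000316292.13 in Input are the filled points, and the EEF1A1 ENST00000309268.10 bars are the widest.

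Along the KO gradient limma called no member in any comparison, and 2 members had an unadjusted p under 0.05 for 40S against Input, 2 for Polysome2 against 40S and 0 for the others. Of all tested transcripts 12.9% and 21.4% had one in the first pair of comparisons, and 1.48% to 9.79% in the others. The share of all tested transcripts called after adjustment, in either direction, was 0.682% for 40S against Input, 0.660% for Polysome2 against Input, 11.0% for Polysome2 against 40S, 1.45% for Polysome2 against 80S and 0.00196% for Polysome2 against Polysome1. EEF2 had the largest KO values, -3.24 for 40S against Input (limma adjusted p = 0.3551) and +3.93 for Polysome2 against 40S (limma adjusted p = 0.09928). With culture as a fixed block, under which 9.06% and 20.7% of tested transcripts were called, both passed, with limma adjusted p = 0.005540 and 0.0001425, and EEF1G passed for Polysome2 against 40S at +1.75 (limma adjusted p = 0.004081). EEF2 had the same signs in WT, at -4.20 and +3.70 in the same comparisons.

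Whether a member lay differently in the gradient of KO and WT was tested as the KO minus WT difference of each comparison, and no member passed in limma, while 2 members for 40S against Input, 2 for Polysome2 against Input, 1 for Polysome2 against 40S and 0 for the others had an unadjusted p under 0.05. Of all tested transcripts 19.0%, 11.1%, 9.23%, 8.91% and 3.94% had one, in the order of the next sentence. The share of tested transcripts that passed after adjustment was 5.17% for 40S against Input, 2.31% for Polysome2 against Input, 0.0529% for Polysome2 against 40S, 0.0901% for Polysome2 against 80S and 0.00784% for Polysome2 against Polysome1. The nearest to the threshold was EEF1A1 ENST00000316292.13 for 40S against Input, at +1.46 (SE 0.46, limma adjusted p = 0.05871), which passed with culture as a fixed block (limma adjusted p = 0.03031) and with KO replicate 3 dropped (limma adjusted p = 0.005650). NPM1 differed by +1.91 for 40S against Input (SE 0.79, limma adjusted p = 0.1756) and by -1.89 for Polysome2 against 40S (SE 0.79, limma adjusted p = 0.4788). PABPC1 differed by +2.95 for Polysome2 against Input (SE 1.43, limma adjusted p = 0.4408). A value that misses the threshold does not show that KO and WT distribute these mRNAs alike.

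The members' correlations across the 36 libraries are a description, since the points share cultures and include those that stood apart. EEF1A1 and EEF1B2 had a correlation of 0.93 in log2(TPM + 1), with 0.99 among the 18 KO libraries and 0.71 among the 18 WT libraries. EEF1A1 and EEF2 had 0.84, EEF2 and EEF1G had 0.83, and PABPC1 and TPT1 had 0.70. EEF1B2 and EEF1G had 0.63, but 0.19 among the WT libraries. NPM1 had -0.17 to 0.44 with the other members. Among the WT libraries NPM1 had 0.69 with EEF2, 0.69 with EEF1B2, 0.57 with EEF1A1 and 0.54 with its low ID ENST00000316292.13. It had 0.44 with PABPC1, 0.17 with TPT1 and 0.04 with EEF1G there. The EEF1A1 IDs had 0.24 with each other over the 36 libraries. The transcripts outside the list nearest to the mean profile of the 7 lead IDs, among 51044 compared, were ENST00000564439.5 (r = 0.97, mean 77.7 TPM in KO and 296.7 TPM in WT libraries) and ENST00000338970.10 (r = 0.97, mean 2.09 TPM in KO and 5.58 TPM in WT libraries).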

How the data were processed

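TPM values per Ensembl transcript were deposited by the authors, and the submitters' processing notes name kallisto, sleuth and the build hg19, whose versions the sources used here do not give. Stranded poly(A) libraries were sequenced in pairs of 75 nt, per the labels' protocols. TPM keeps no record of depth, so depth is unknown and counting error is not estimated. The 92 ERCC rows were set aside, and no column was unused.

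Values were taken as log2(TPM + 1), which understates the change of low transcripts. The filter kept transcripts that 3 or more libraries held at 1 TPM or more. Means of the 12 groups were fitted with limma 3.58.1 (R version 4.3.3) to all 36 libraries, leaving 24 residual degrees of freedom, with a variance trend and Benjamini-Hochberg adjustment within each of 21 comparisons. The model was tested on simulated data with independent libraries and the same spread in all groups. Those data lacked the correlation within cultures and the split among KO cultures, so the simulation does not cover them. The fit takes libraries as independent although 6 cultures gave 6 fractions each. Libraries of a genotype that share a replicate number were taken as fractions of the same culture, and so as paired. Their deviations from the group means correlated at 0.29 to 0.83 in KO and at -0.15 to 0.50 in WT. KO and WT share only a number, with correlations of -0.71 to 0.11. No 2 libraries held identical values, and the highest correlation between libraries was 0.957.

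All members are named, and outside the list the 2 transcripts with the highest correlation with the members' mean profile. The members, lists and tests were chosen with earlier results of these data known. Lists of cell type markers and of other translation genes were not analysed here, since the gene table of 59792 genes holds no Ensembl transcript IDs. Start sequences are RefSeq's on GRCh38.p14, a build other than that of the notes, and were matched by symbol. The alternatives were other pseudocounts, filters, scalings, blocks and left-out libraries. Figures were drawn with matplotlib 3.10.9, and pandas 2.3.3, scipy 1.17.1 and numpy 2.4.6 made the tables under Python 3.11.15.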

Additional observations from a re-analysis of the deposited data

How the results depend on the processing

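Of 3606 single-member values recomputed under 22 other settings, 3405 kept their side of the threshold, with the same direction or no call, 125 gained a call, 60 lost it and 16 changed sign. With all libraries the number of members called was 2 for KO against WT in Input, 6 for WT 40S against Input, 3 for WT Polysome2 against Input, 1 for WT Polysome2 against 40S and 0 in the other comparisons. Shares in brackets, where given, are of all tested transcripts called in either direction under the same setting and comparison. A count without a share is by itself no result about the members. With a pseudocount of 0.1 the Input count was 0 (12.9%) and WT Polysome2 against Input 1 (6.52%). With a pseudocount of 10 it was 4 in Input, 1 each in disome, Polysome1 and Polysome2, 2 for WT Polysome2 against 40S and 1 for the difference of 40S against Input. A filter at 10 TPM gave 1 in Input (10.9%) and 2 for WT Polysome2 against 40S (56.8%). No filter (3.19%) or no variance trend (4.91%) gave 1 for the difference of 40S against Input. Quantile normalization gave 0 in Input (13.1%) and for WT 40S against Input (26.3%). It gave 1 lower each for KO Polysome2 against 40S (3.75%), WT Polysome2 against 40S (18.6%) and WT Polysome2 against 80S (12.2%). Median-of-ratios scaling gave 0 in Input (14.9%). It gave 1 lower each for KO against WT in 40S (4.64%), KO Polysome2 against 40S (4.78%) and the difference of 40S against Input (5.39%). It gave 1 higher each for WT 40S against Input (31.4%) and the difference of Polysome2 against 40S (0.674%). It gave 2 lower each for WT Polysome2 against 40S (20.2%) and against 80S (11.1%). ERCC scaling gave 6 each in Input and 80S, 5 in disome and 8 in each of the polysome fractions, all lower in KO, as were 13.5% of tested transcripts in Input, 23.9% in 80S, 53.3% in disome and 76.2% and 76.1% in the polysome fractions. It gave 8 higher for WT Polysome2 against 40S and 4 lower for its KO minus WT difference, as were 79.9% and 59.5% of tested transcripts. For WT Polysome2 against Input it gave 3 higher and 0 lower, with 63.1% of tested transcripts higher. It gave 1 higher each for KO Polysome2 against 40S and WT Polysome2 against 80S, as were 4.35% and 52.5%. For the KO minus WT difference of Polysome2 against 80S it gave 1 lower, as were 11.7%. Fitting only the libraries compared gave 0 in Input (0.0784%). Replicate number as a fixed block, shared by KO and WT as a number only, gave 4 in Input (23.2%) and 2 for WT Polysome2 against 40S (38.7%). It gave 1 each in disome (6.11%), Polysome1 (11.1%) and Polysome2 (10.4%). Culture as a random block gave 4 in Input and 1 in each fraction heavier than 40S. Culture as a random or a fixed block gave 1 for KO 40S against Input and 2 for KO Polysome2 against 40S. Both blocks gave 3 for WT Polysome2 against 40S and 1 for the difference of 40S against Input. Under the random block 6.73%, 18.8%, 46.6% and 13.1% of tested transcripts were called in these comparisons. The fixed block gave 1 for WT Polysome2 against 80S. Leaving out KO Input replicates 1 and 2 gave 0 in Input, 1 in Polysome1, 1 for KO 40S against Input and 2 for WT Polysome2 against 40S. Leaving these 2 cultures out everywhere gave 0 in Input and 3 for WT Polysome2 against 40S. Leaving out KO disome replicate 1 gave 1 for KO Polysome2 against 40S, 2 for WT Polysome2 against 40S and 1 for the difference of 40S against Input, and summing the EEF1A1 IDs gave 1 in Input.

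Leaving out 1 culture at a time moved the KO against WT counts over 0 to 7 in Input, 0 to 3 in 40S, 0 to 4 in both 80S and disome, 0 to 2 in both polysome fractions, and the others over 2 to 7 for WT 40S against Input, 0 to 3 for WT Polysome2 against Input, 0 to 3 for WT Polysome2 against 40S and 0 to 1 for the difference of 40S against Input. It left the count at 0 in the other comparisons. The share of all tested transcripts called moved as well, as given above for KO replicate 3, so these counts alone are no result about the members.

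The 16 sign changes that involved a call came with scaling, and 200 values with no call on either side changed sign too. ERCC scaling turned KO against WT in Polysome1 to -2.36 for EEF1A1 ENST00000316292.13, -3.90 for EEF1G and -3.13 for NPM1. It turned WT Polysome2 against Input to 1.33 for EEF1A1 ENST00000316292.13, 3.42 for EEF1B2, 3.60 for EEF1G, 0.39 for PABPC1, 1.58 for TPT1 and 3.66 for NPM1, WT Polysome2 against 40S to 5.74 for EEF1G and 4.75 for TPT1, and the KO minus WT difference of the last for TPT1 to -3.41. Median-of-ratios scaling gave 2.35 for EEF1G and 0.85 for TPT1 in WT 40S against Input and -0.027 for NPM1 in WT Polysome2 against 40S. Quantile normalization gave 0.20 for TPT1 in WT 40S against Input. Over all tested transcripts the ERCC-scaled medians were -3.01 for KO against WT in Polysome1, 2.57 for WT Polysome2 against Input and 4.04 for WT Polysome2 against 40S. For the KO minus WT difference of Polysome2 against 40S the median was -3.16. The cause of the sign changes was not tested. Within 50 bases on either side of the start 76.8% of all windows held a C plus pyrimidine run, against 38.4% in the 30 bases used. Depth is unknown, and a change of 1 ID can reflect reads shared with other isoforms or pseudogene copies.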
